A study of Mus musculus with 9 samples.

Results

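The genes described here are 5 cytokine genes and Ptgs2, which encodes the inducible cyclooxygenase COX-2. They were chosen by their UniGene cluster numbers, which are Mm.1293 for Tnf, Mm.222830 for Il1b, Mm.1019 for Il6, Mm.874 for Il10, Mm.248380 for Tgfb1 and Mm.292547 for Ptgs2. All 6 were among the 17810 clusters of the deposited table, each with 1 probe set. The table holds cluster numbers without gene names, and the gene table used here holds no cluster numbers, so the names are those of the list that chose the members.

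Expression was measured on 1-colour Affymetrix arrays in macrophages grown from the bone marrow of C57BL/6 mice with macrophage colony-stimulating factor (M-CSF, 30 ng/ml). On day 4 the medium was changed, and the cells were harvested 3 days later, after 7 days in all. In the group cmB16F1+dexa+IL4, here the combination, the new medium had been conditioned by the mouse melanoma line B16F1 and held 5e-07 M of the glucocorticoid dexamethasone and 10 ng/ml of interleukin 4 (IL-4). The group dexa+IL4 received the same dexamethasone and IL-4 in fresh medium, and the group cmB16F1 received B16F1-conditioned medium without them. Each group had 3 arrays, numbered 1 to 3, and the labels do not say whether equal numbers share an animal or a culture or whether the arrays of a group do, so p-values measure the spread between these arrays, which may be technical. No arrays of cells in fresh medium alone were used here. The effect of each treatment on untreated cells, and whether the treatments add up, was therefore not tested. The labelled cell type was not checked against macrophage markers, because clusters outside the chosen list carry no gene names.

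Macrophages release tumour necrosis factor (Tnf), interleukin 1 beta (Il1b) and interleukin 6 (Il6) when they sense microbes or tissue damage, and the cyclooxygenase encoded by Ptgs2 makes the precursor of prostaglandin E2. Interleukin 10 (Il10) and transforming growth factor beta 1 (Tgfb1) restrain inflammation and take part in tissue repair. Glucocorticoids are known to repress many inflammatory genes, and IL-4 drives the alternative form of macrophage activation. The arrays measured transcripts, and protein was not measured here. In such bulk samples fewer cells making a transcript and less of it per cell cannot be told apart.

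The promoters of 5 of the 6 genes were in the RefSeq promoter table of build GRCm38.p6, which gives 250 bases before to 50 bases after a gene's start. Those of 3 genes are printed, on the gene's own strand: Il1b and Tnf, which were lower together in both groups with dexamethasone and IL-4 than in cmB16F1, and Il6, which was highest in the combination. Il10 was also lower in both of these groups than in cmB16F1, but its promoter was the one missing, so its motifs are not known here. Capitals mark the letters that matched a searched motif.
Il1b (chr2:129371090-129371389, minus strand): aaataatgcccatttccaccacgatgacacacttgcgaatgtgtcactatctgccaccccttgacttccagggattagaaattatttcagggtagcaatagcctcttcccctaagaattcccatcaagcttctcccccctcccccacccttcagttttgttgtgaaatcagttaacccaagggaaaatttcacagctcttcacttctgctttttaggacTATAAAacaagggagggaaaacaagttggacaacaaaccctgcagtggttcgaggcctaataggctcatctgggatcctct
Tnf (chr17:35201958-35202257, minus strand): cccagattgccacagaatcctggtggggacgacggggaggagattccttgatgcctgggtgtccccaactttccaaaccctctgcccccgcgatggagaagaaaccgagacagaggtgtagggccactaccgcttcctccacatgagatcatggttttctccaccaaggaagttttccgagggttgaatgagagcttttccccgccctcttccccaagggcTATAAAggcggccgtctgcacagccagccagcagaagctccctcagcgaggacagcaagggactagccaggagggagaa
Il6 (chr5:30012864-30013163, plus strand): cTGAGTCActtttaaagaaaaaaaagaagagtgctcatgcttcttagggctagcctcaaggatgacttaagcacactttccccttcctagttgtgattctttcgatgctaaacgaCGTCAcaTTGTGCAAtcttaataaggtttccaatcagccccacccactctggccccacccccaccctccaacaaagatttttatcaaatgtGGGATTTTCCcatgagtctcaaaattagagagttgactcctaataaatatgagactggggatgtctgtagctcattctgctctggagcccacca
Searches ran on both strands for the TATA box (TATAAA), the NF-kB consensus, the AP-1 motif (TGANTCA), the core of the cAMP response element (TGACG) and a C/EBP motif (TTGNGCAA). The motifs did not overlap one another in these promoters. The Il1b and Tnf promoters held a TATA box, at bases -31 to -26 and -29 to -24 from the start, and no match to the other motifs. The TATA box was found in 13.6% of all 32851 promoters of the table. The Il6 promoter held an NF-kB match at -44 to -35, a C/EBP match at -128 to -121, a cAMP response element core at -135 to -131 and an AP-1 match at -249 to -243. Of all promoters, 4.51% held the NF-kB consensus, 2.94% the C/EBP motif, 20.8% the cAMP response element core and 7.81% the AP-1 motif. The promoter of Ptgs2 held a C/EBP match at -69 to -62 and a cAMP response element core at 14 to 18, and that of Tgfb1 held none of the motifs. These matches describe letters in a short window and show no binding.

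Values are log2 probe-set values, on which a difference of 1 is 2-fold. The 27 probe sets for bacterial poly-A controls ran from 6.09 to 7.00 over the 9 arrays and mark the low end of what these arrays read, since mouse cells do not make these transcripts. The labels do not say whether such control RNA was added to the samples. Ptgs2 lay within this range in all 3 groups, and Il6 in dexa+IL4 and in cmB16F1. In the combination the Il6 mean was 0.01 above the highest control. Tnf, Il1b, Il10 and Tgfb1 had means above the range in every group, although Il1b and Il10 lay little above it in the combination and in dexa+IL4. In all, 5 of the 18 group means lay within the range. Of all clusters, 60.5% had a mean over the 9 arrays above the highest control and the rest did not. The array medians ran from 7.19 to 7.25.

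Tnf encodes a cytokine that activates endothelium and other immune cells. Its probe set read 7.37, 7.39 and 7.43 on the combination arrays, 7.52, 7.52 and 7.67 on the dexa+IL4 arrays, and 8.027, 8.005 and 8.209 on the cmB16F1 arrays. The groups did not overlap, with the combination lowest and cmB16F1 highest. The means were 7.40 ± 0.03 in the combination, 7.57 ± 0.08 in dexa+IL4 and 8.08 ± 0.11 in cmB16F1 (SD, n = 3 each). All 9 values were above every bacterial control.

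Il1b encodes a fever-inducing cytokine that is made as a precursor and cut by caspase-1. It read 7.07, 7.23 and 7.17 in the combination, 7.06, 7.19 and 7.06 in dexa+IL4, and 8.84, 9.40 and 9.29 in cmB16F1. All cmB16F1 arrays stood far above the others, while the combination and dexa+IL4 arrays overlapped. The means were 7.16 ± 0.08 in the combination, 7.10 ± 0.07 in dexa+IL4 and 9.18 ± 0.29 in cmB16F1 (SD, n = 3 each). The combination mean was 0.16 and the dexa+IL4 mean 0.10 above the highest control, so that fold differences from cmB16F1 may be too small.

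Il6 encodes a cytokine that signals through the shared receptor chain gp130 and drives the acute-phase response. It read 6.81, 7.25 and 6.98 in the combination, 6.55, 6.76 and 6.45 in dexa+IL4, and 6.34, 6.41 and 6.38 in cmB16F1. The groups did not overlap, with the combination highest and cmB16F1 lowest. Every dexa+IL4 and cmB16F1 value lay within the control range, so the order of these groups is not one above background. The means were 7.01 ± 0.22 in the combination, 6.59 ± 0.16 in dexa+IL4 and 6.38 ± 0.04 in cmB16F1 (SD, n = 3 each). Only replicate 2 of the combination exceeded every bacterial control, and replicates 2 and 3 exceeded the highest control of their own array. Replicate 2 of the combination also had the largest 3' minus 5' difference of beta-actin of all 9 arrays, 1.39 against 0.95 and 1.10 on the other combination arrays, and the highest mean of the 18 hybridization control sets, 10.55 against 10.31 on each of the other combination arrays. The part of these measures in the Il6 value was not tested.

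Il10 encodes a cytokine that dampens macrophage activation. It read 7.47, 7.18 and 7.29 in the combination, 7.27, 7.25 and 6.89 in dexa+IL4, and 8.38, 7.97 and 7.80 in cmB16F1. As for Il1b, the cmB16F1 arrays were all above the rest and the other groups overlapped. The means were 7.31 ± 0.15 in the combination, 7.14 ± 0.22 in dexa+IL4 and 8.05 ± 0.30 in cmB16F1 (SD, n = 3 each). Replicate 3 of dexa+IL4 lay within the control range.

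Tgfb1 encodes a growth factor that is secreted in a latent complex. It read 8.85, 8.96 and 8.75 in the combination, 9.15, 9.13 and 9.21 in dexa+IL4, and 9.007, 9.020 and 9.003 in cmB16F1. The groups did not overlap but lay close together, with dexa+IL4 highest and the combination lowest. The means were 8.85 ± 0.10, 9.16 ± 0.04 and 9.01 ± 0.01 in the combination, dexa+IL4 and cmB16F1 (SD, n = 3 each). Ptgs2 read 6.40, 6.50 and 6.34 in the combination, 6.44, 6.42 and 6.48 in dexa+IL4, and 6.40, 6.43 and 6.50 in cmB16F1, with overlap of all groups. Its means were 6.41 ± 0.08 in the combination, 6.45 ± 0.03 in dexa+IL4 and 6.44 ± 0.05 in cmB16F1 (SD, n = 3 each). None of its 9 values exceeded the highest control of its array, so no difference in Ptgs2 between the groups could be read above background.

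**Figure D1:**
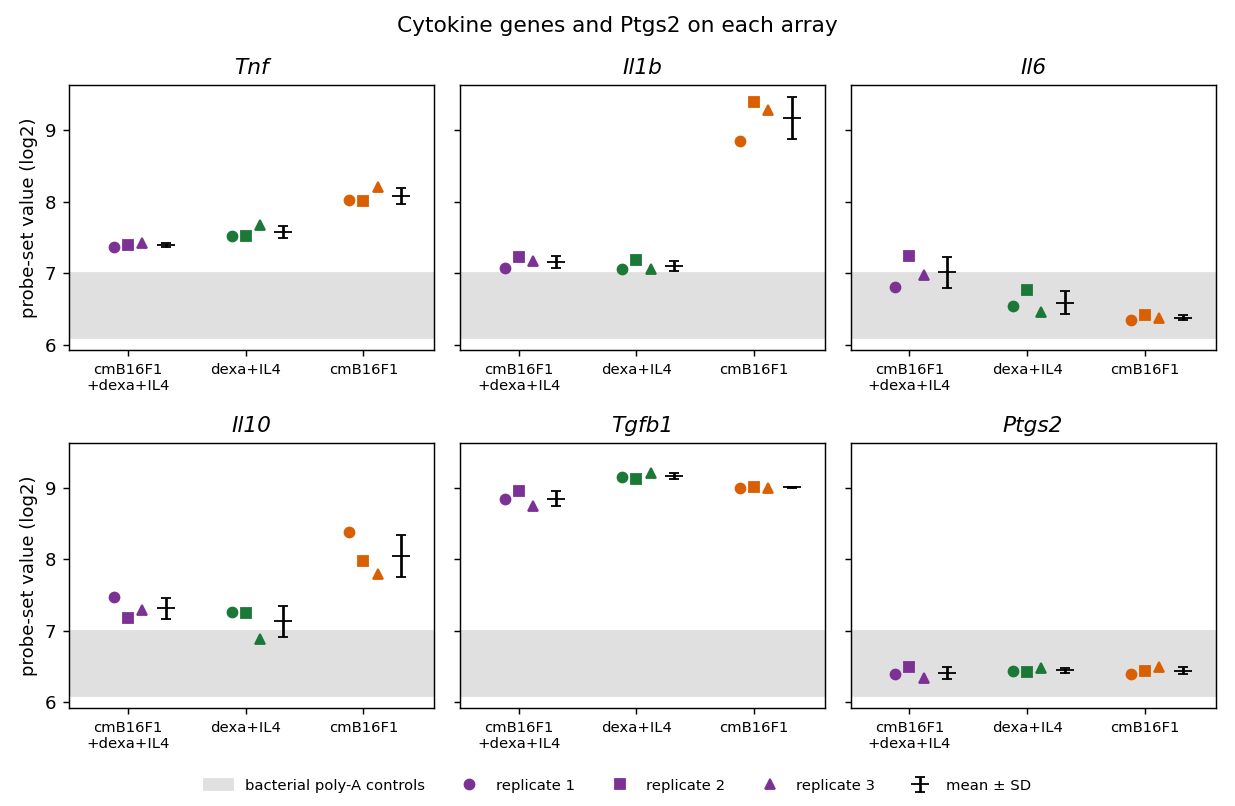
Probe-set values (log2) of the 6 genes on each of the 9 arrays, 1 symbol per array and replicate number, with the mean ± SD of each group beside them and a grey band from 6.09 to 7.00 for the bacterial controls. The cmB16F1 arrays stand highest for Tnf, Il1b and Il10, the combination arrays are highest for Il6, and Ptgs2 stays in the grey range.

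The first comparison, of the combination with dexa+IL4, addressed the effect of conditioned medium in the presence of dexamethasone and IL-4. Il6 rose and Tgfb1 fell, and the other 4 genes did not pass the test. Of all clusters 17.9% passed it, 8.88% upward and 9% downward. The arrays did not overlap for 3 of the 6 genes, Il6, Tgfb1 and Tnf, against 36.1% of all clusters. The median size of the measured difference was 0.18 over the 6 genes, Il6 and Ptgs2 included, and 0.07 over all clusters. The 3' set of 18S ribosomal RNA ran from 9.39 to 10.45 on the combination arrays and from 9.17 to 9.29 on the dexa+IL4 arrays, with no overlap. The 3' minus 5' difference of Gapdh averaged 0.45 ± 0.19 in the combination and 0.30 ± 0.08 in dexa+IL4 (SD, n = 3 each). The part of both measures in the results was not tested.

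The measured Il6 means, 7.01 in the combination and 6.59 in dexa+IL4, differed by the test (limma with Benjamini-Hochberg adjusted p = 0.0185). Since the dexa+IL4 mean lay within the control range, the size of the rise is given only as at least 1.03-fold, against the bacterial controls of the dexa+IL4 arrays. This bound rested on combination replicate 2. Without it the combination mean was 6.90, within the control range, and no fold above the controls remained. The Il6 call was lost without dexa+IL4 replicate 1 or 3 and with scaling to the hybridization controls (adjusted p from 0.00257 to 0.179 over 16 alternatives). Tgfb1 was 1.24-fold lower in the combination, with a difference of -0.31 (SE 0.06, limma adjusted p = 0.00553), and kept its call under all 16 alternatives.

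The Tnf difference of -0.17 missed the threshold (limma adjusted p = 0.0833, 95% confidence interval from -0.31 to -0.04) but passed it in 4 of 16 alternatives (adjusted p from 0.0104 to 0.263 over the 16). For Il1b the difference was 0.05 with an interval from -0.21 to 0.32 (limma adjusted p = 0.818). For Il10 it was 0.18 with an interval from -0.15 to 0.51 (limma adjusted p = 0.480). Scaling to the hybridization controls turned the signs of these Il1b and Il10 differences, to -0.20 and -0.08, neither of which passed. That scaling moved the median of all clusters to -0.26. The scaling takes the same amount from every probe set of an array, so differences relative to the median of all clusters could not change. With and without it they were 0.06 for Il1b, 0.18 for Il10, 0.43 for Il6 and -0.17 for Tnf. The hybridization controls averaged 10.31 to 10.55 on the combination arrays, 10.03 to 10.22 on the dexa+IL4 arrays and 10.02 to 10.28 on the cmB16F1 arrays. With the arrays scaled to these controls the Il6 call was lost and the Tnf difference passed the threshold.

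The second comparison, of the combination with cmB16F1, addressed the effect of dexamethasone and IL-4 in the presence of conditioned medium. Il1b, Il10 and Tnf fell, Il6 rose, and Tgfb1 and Ptgs2 did not pass the test. Of all clusters 14.1% passed, 6.56% upward and 7.57% downward. The arrays did not overlap for 5 of the 6 genes, all but Ptgs2, against 28.5% of all clusters. The median size of the measured difference was 0.66 over the 6 genes, Il6 and Ptgs2 included, and 0.06 over all clusters.

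Il1b was 4.05-fold lower in the combination than in cmB16F1, with a difference of -2.02 (SE 0.12, limma with Benjamini-Hochberg adjusted p = 3.044e-06). Only 46 of the 17810 clusters had a larger difference in either direction. Il10 was 1.67-fold lower, at -0.74 (SE 0.15, limma adjusted p = 0.00792), and Tnf was 1.60-fold lower, at -0.68 (SE 0.06, limma adjusted p = 5.206e-05). The regulatory cytokine Il10 moved in the same direction as the inflammatory Tnf and Il1b. The measured Il6 means, 7.01 in the combination and 6.38 in cmB16F1, differed by the test (limma adjusted p = 0.00236). Against the bacterial controls of the cmB16F1 arrays Il6 was at least 1.05-fold higher, and without combination replicate 2 no fold above the controls remained. The fit behind these values did not pair equally numbered arrays. These 4 calls held under all 16 alternatives, a replicate block among them.

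The Tgfb1 difference of -0.16 missed the threshold (95% confidence interval from -0.29 to -0.02, limma adjusted p = 0.123), although its arrays did not overlap. It passed without combination replicate 2, at -0.21 (limma adjusted p = 0.0373, from 0.0373 to 0.315 over 16 alternatives). For Ptgs2 the difference was -0.03, with both groups within the control range. Any 2 of the 3 comparisons share a group, so their values are not independent.

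**Figure D2:**
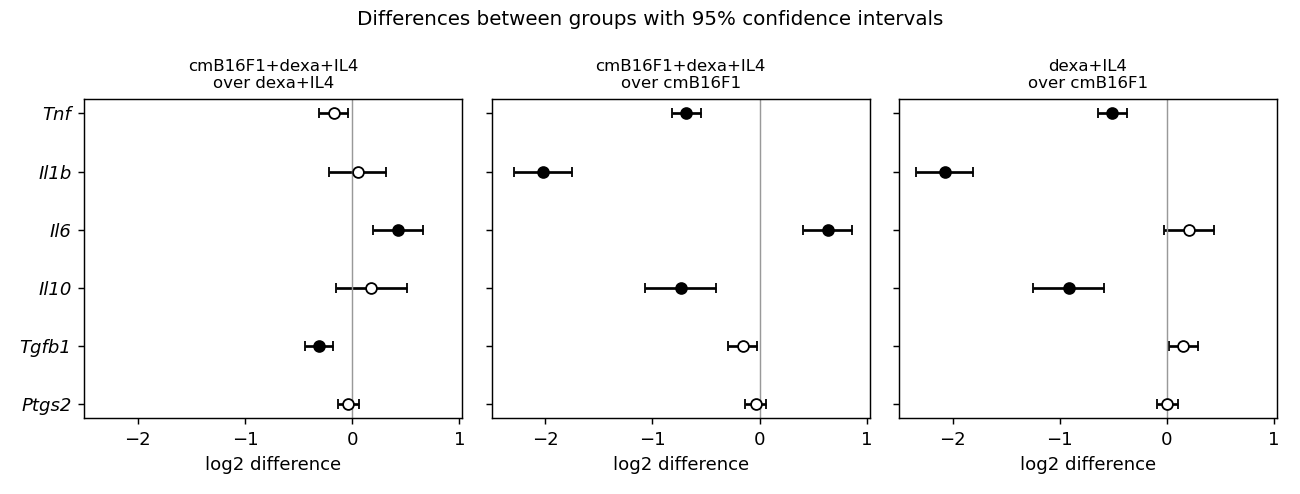
Measured log2 differences of the 6 genes in the 3 comparisons, the first-named group over the second, with 95% confidence intervals from limma and filled points where the adjusted p was below 0.05. Il1b lies at -2.02 and -2.07 in the comparisons with cmB16F1 and at 0.05 between the combination and dexa+IL4. For Il6 and Ptgs2 at least 1 of the groups compared lay within the control range, so the sizes drawn are not sizes above background.

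The third comparison set dexa+IL4 against cmB16F1, which differ in dexamethasone, IL-4 and conditioned medium and share M-CSF. Il1b, Il10 and Tnf were lower in dexa+IL4, while Il6, Tgfb1 and Ptgs2 did not pass the test. Of all clusters 25% passed, 12.8% higher and 12.2% lower in dexa+IL4. The arrays did not overlap for 5 of the 6 genes, all but Ptgs2, against 44.3% of all clusters. Il6 was among the 5, although both of its group means lay within the control range. The median size of the measured difference was 0.36 over the 6 genes, Il6 and Ptgs2 included, and 0.08 over all clusters. The 3' set of 18S ribosomal RNA averaged 9.21 ± 0.07 in dexa+IL4 and 9.97 ± 0.68 in cmB16F1, with overlap of the arrays. The 3' minus 5' difference of Gapdh averaged 0.30 ± 0.08 and 0.42 ± 0.20 in the same groups (SD, n = 3 each). The part of these 18S and Gapdh measures in the third comparison was not tested.

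Il1b was 4.21-fold lower in dexa+IL4, with a difference of -2.07 (SE 0.12, limma with Benjamini-Hochberg adjusted p = 1.622e-06). In this comparison 63 clusters had a larger difference. Il10 was 1.88-fold lower, at -0.91 (SE 0.15, limma adjusted p = 0.00141), and Tnf 1.42-fold lower, at -0.51 (SE 0.06, limma adjusted p = 0.000225). These 3 calls held under all 16 alternatives. The Il6 difference of 0.21 missed the threshold (limma adjusted p = 0.181, 95% confidence interval from -0.02 to 0.44), and both groups lay within the control range. The Tgfb1 difference of 0.15 missed it too (95% confidence interval from 0.02 to 0.29, limma adjusted p = 0.0883). It passed with array weights and with only the groups compared, within a range of adjusted p from 0.0453 to 0.652 over 16 alternatives. The Ptgs2 difference was 0.003, with an interval from -0.10 to 0.10.

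**Figure D3:**
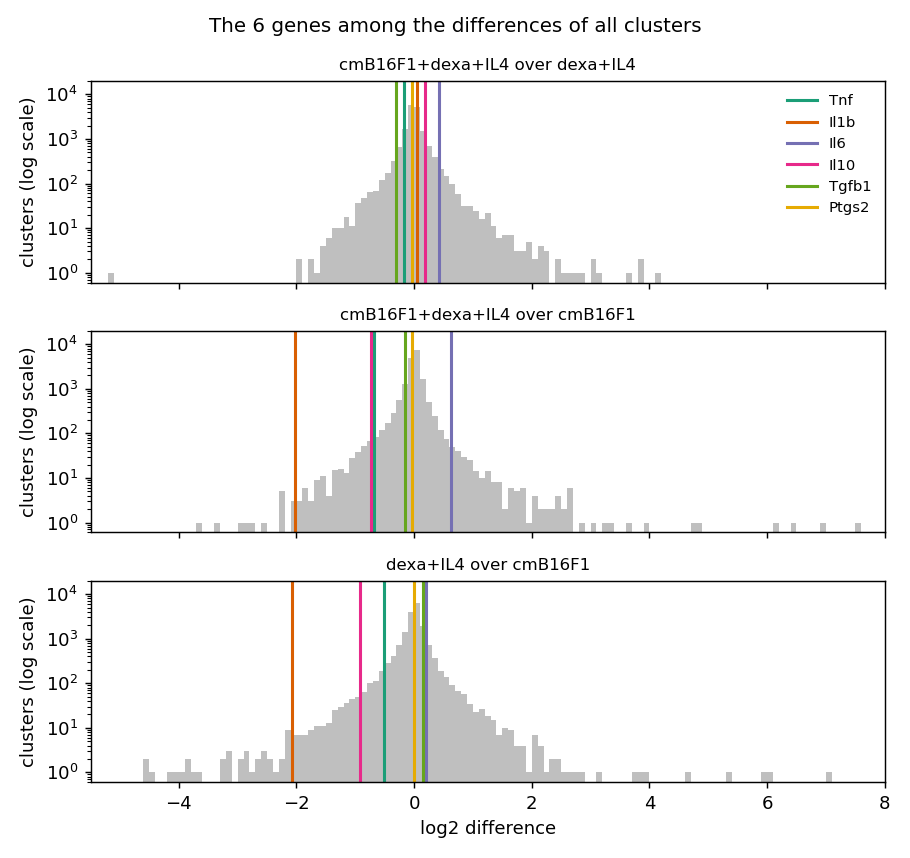
Histograms of the log2 differences of all 17810 clusters in the 3 comparisons (number of clusters on a log scale), with coloured lines at the 6 genes. Against cmB16F1, Il1b lies in the lower tail at -2.02 for the combination and -2.07 for dexa+IL4, while Ptgs2 lies near 0 in all 3 panels.

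Read by gene, Il1b and Il10 shared one order of the groups, with cmB16F1 above the combination and dexa+IL4, whose arrays overlapped and whose difference did not pass the test. Tnf was lower in the combination and in dexa+IL4 than in cmB16F1, and the difference between the combination and dexa+IL4 did not pass the test. Il6 had the combination above dexa+IL4 and dexa+IL4 above cmB16F1. The first step passed the test, but the dexa+IL4 mean lay within the control range. Without combination replicate 2 no fold above the controls remained, and the call was lost in 3 of 16 alternatives. The last step lay within the control range and did not pass the test. Tgfb1 had its highest mean in dexa+IL4 and its lowest in the combination, and cmB16F1 differed from neither by the test.

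Among 10767 clusters with a mean above the bacterial controls, the one whose values followed Il1b most closely over the 9 arrays was Mm.109840 (Pearson r = 0.993). It averaged 6.95 ± 0.03 in the combination, 6.88 ± 0.04 in dexa+IL4 and 7.44 ± 0.06 in cmB16F1 (SD, n = 3 each). Its means in the combination and dexa+IL4 lay within the control range. Its place among these clusters and its likeness to Il1b therefore rest on the cmB16F1 arrays, where it and Il1b are high. For Il10 it was Mm.33902 (Pearson r = 0.991), at 8.02 ± 0.09, 7.96 ± 0.13 and 8.46 ± 0.21 in the same groups. Both were picked as the highest of many correlations over arrays that share 3 treatments, so these values are descriptions, and the clusters carry no gene name here.

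**Figure D4:**
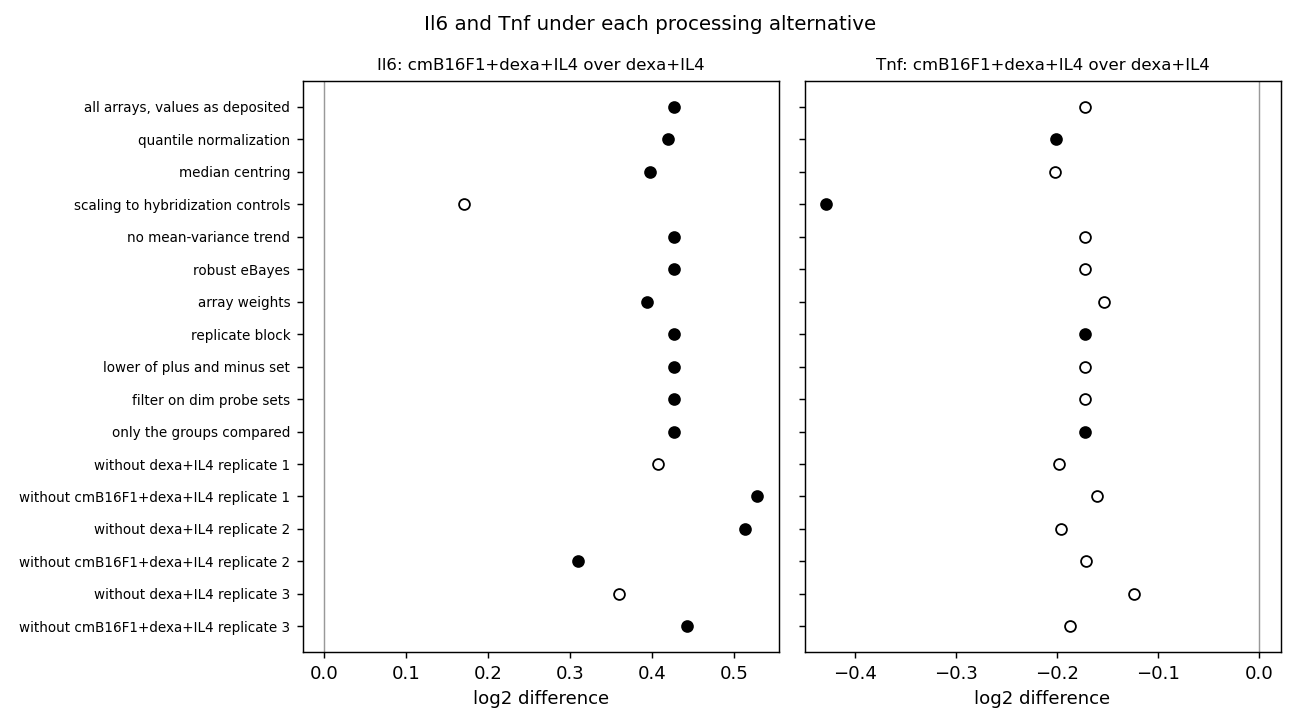
Measured log2 differences of Il6 and Tnf between the combination and dexa+IL4 with all arrays and values as deposited (top) and under 16 alternatives, with filled points where the adjusted p was below 0.05. Il6 stays above 0, from 0.17 to 0.53, and Tnf below 0, from -0.43 to -0.12, while the side of the threshold changes for both.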

How the data were processed

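The authors deposited log2 probe-set values whose array medians were nearly equal, from 7.19 to 7.25. That they are log2 values was inferred from their range, 5.86 to 14.2. How background was corrected, arrays were normalized and probes were grouped into sets is not given in the sources used here. Of 17931 probe sets, 17867 carried a cluster number, and where a cluster had a plus and a minus set (57 clusters) the brighter was used. Groups were compared with limma 3.58.1 in R 4.3.3 (lmFit, then eBayes with trend) on all 9 arrays with group as the only term. Benjamini-Hochberg adjustment covered 17829 features, the clusters and 19 mouse control sets, with a threshold of 0.05. A group mean at or below the highest bacterial poly-A control was taken as within background, and a fold against it is a lower bound, taken against each array's highest control. Exact permutation tests of 3 arrays against 3 cannot go below 0.1 and were not used. The number of arrays limits the precision. The procedure was tested on simulated data with independent noise on each array. Those data held neither the shared deviations of equally numbered arrays given below nor a background floor, so they say nothing about either.

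Deviations of equally numbered arrays correlated at 0.617, 0.565 and 0.662 between the combination and cmB16F1, all above 0.1, so equal numbers count as pairs there. The main fit did not use these pairs. With a replicate block, limma adjusted p in that comparison was 0.000685 for Il10 and 0.000310 for Il6. Without the block it was 0.00792 and 0.00236. Between the combination and dexa+IL4 the deviations of replicates 1 to 3 correlated at 0.224, -0.067 and 0.116. Between dexa+IL4 and cmB16F1 they correlated at 0.236, -0.023 and 0.167. In both, replicate 2 lay below 0.1, so equal numbers were not counted as pairs there. The members, lists and tests were chosen with earlier results of these data known. The rule for named genes gave the 6 members and, for the 2 with the largest differences, the most similar cluster. Further pathway genes and the cell-type markers need gene names and were not looked up.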

Additional observations from a re-analysis of the deposited data

How the results depend on the processing

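The 16 alternatives were 3 normalizations, 2 variance models, array weights, a replicate block, the other probe set, a filter on dim sets, a fit of only the groups compared and leaving out each of the 6 arrays of a comparison. The filter removed Ptgs2. The 7 calls against cmB16F1, and the lower Tgfb1 in the combination than in dexa+IL4, were kept under all 16 alternatives. The other probe set was no test of these calls, since none of the 6 genes has both a plus and a minus set. With that setting their differences were those of the main fit. Wherever 16 alternatives are counted, that setting is included.

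Between the combination and dexa+IL4, scaling to the hybridization controls gave Il6 0.17, Tnf -0.43, Il1b -0.20, Il10 -0.078 and Ptgs2 -0.29, of which Tnf and Ptgs2 passed. The p-values of that scaling, and so its calls, cannot be set beside those of the main fit. That scaling moved the median of all clusters to -0.26 there, to -0.20 for the combination over cmB16F1 and to 0.06 for dexa+IL4 over cmB16F1. The clusters called became 7104, 2253 and 1893, of which 5.34%, 11.7% and 49.3% were higher, against 3184, 2516 and 4454 with 49.7%, 46.4% and 51.0% higher. With median centring 38.1% of the calls in the first comparison were higher. Tnf between the combination and dexa+IL4 passed with quantile normalization (-0.20), with the replicate block and with only the groups compared (both -0.17). The replicate block changed no other call of the 6 genes. Between dexa+IL4 and cmB16F1, Tgfb1 passed with array weights (0.15) and with only the groups compared (0.15). Ptgs2, within background in all groups, turned sign there with quantile normalization (-0.0077) and array weights (-0.00050).

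Leaving out 1 array, the measured Il6 difference between the combination and dexa+IL4 ran from 0.31 to 0.53, and 1 of the 6 genes was still called without dexa+IL4 replicate 1 or 3, against 2 with all arrays. The clusters called ran from 2044 to 3356. Tgfb1 between the combination and cmB16F1 ran from -0.21 to -0.11, Ptgs2 between these groups from -0.077 to 0.0022, and Ptgs2 between dexa+IL4 and cmB16F1 from -0.020 to 0.030. The lower bound of the Il6 rise on the log2 scale, recomputed without each combination array after the data were seen, ran from -0.081 to 0.14 over dexa+IL4 and from -0.052 to 0.17 over cmB16F1, below 0 without replicate 2. The cause of these changes was not tested. The number of group means within the control range was 5 under each of the 3 other definitions tried.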
